A study of Mus musculus with 12 samples.

Results

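The diurnal change was examined in livers of mice that received the product on HFD, by comparing the 3 mice collected at ZT12 with the 3 collected at ZT0. Zeitgeber time (ZT) counts hours from lights on, so ZT0 is the end and ZT12 the start of the active phase of the mouse. These 6 livers belong to a set of 12 with 3 mice per group, in which the other 6 received vehicle and were collected at the same hours. All 12 mice were male C57BL/6J, 8 weeks old by the design text, and fed HFD. By the methods HFD began weeks before treatment and went on through it, and gavage was given daily for the last 2 weeks. The product is Policaptil Gel Retard, a gel-forming fiber blend that the sample labels name Libramed, and vehicle was drinking water. By the methods, gavage took place shortly before lights off, so its daily hour lay shortly before collection at ZT12 but not at ZT0. Whether mice were gavaged on the day of collection is not stated. Time of day and time since gavage therefore cannot be told apart in either treatment. No strain, allele or tissue difference separated the groups, and libraries were made from whole liver RNA, in which fewer cells of a type and less RNA per cell cannot be told apart. Expression is given in FPKM, fragments scaled to transcript length and library size, as deposited.

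The clock of the liver turns through a feedback loop. ARNTL and CLOCK bind E-boxes and switch on the Per and Cry repressors, the nuclear receptors Nr1d1 and Nr1d2, and the PAR bZIP factors Dbp, Tef and Hlf, and these act back on Arntl and on metabolic genes. Nocturnal feeding adds its own rhythm, so that chaperones of the endoplasmic reticulum, sterol synthesis, gluconeogenesis and drug metabolism rise and fall at set hours. In mouse liver, Arntl is high in the morning and the Per genes are high around dusk.

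Testing covered 9806 genes whose mean over the 12 livers reached 1 FPKM. Of these, 686 were higher and 526 lower at ZT12 in the Libramed livers (limma on log2(FPKM + 1), Benjamini-Hochberg adjusted p under 0.05). These are 7.00% and 5.36% of the genes tested, the background against which the counts of each gene group are read. A count of 1 in a list of 20 genes (5%) is near that background. The median log2 fold change was 0.60 among the genes called higher and -0.60 among those called lower, against 0.013 over all genes. A change of at least 1 on the log2 scale was reached by 144 of the genes called higher and 63 of those called lower. The 3 values at ZT12 lay wholly to one side of the 3 at ZT0 for 3419 genes, or 34.9%. For 1 gene taken alone, the 20 arrangements of 3 mice against 3 give an exact two-sided permutation p of 0.1 at the smallest, so statements about single genes rest on the fit over all genes. The first principal component of the 6 livers held 44.8% of the variance and put all ZT0 livers on one side and all ZT12 livers on the other.

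Libramed ZT12 replicate 3 carried skeletal muscle transcripts. The 17 muscle genes in the table summed to 82.4 FPKM there and to between 1.69 and 3.20 FPKM in the other 11 livers. Acta1 (16.4 FPKM), Ckm (10.4 FPKM) and Tnnt3 (10.3 FPKM), which encode the actin, creatine kinase and a troponin of muscle fibers, were listed at 0 in all other livers. Only 2 of the 17 genes reached the level for testing, and neither passed. Without this liver, 335 genes were called higher and 261 lower (3.42% and 2.66%), and 324 and 243 of these were also called with it. A loss of this size was not particular to that liver. Leaving out Libramed ZT0 replicate 1 gave 372 higher and 267 lower, Libramed ZT0 replicate 2 gave 388 and 261, and Libramed ZT0 replicate 3 gave 379 and 238. Leaving out Libramed ZT12 replicate 2 gave 304 and 231, and Libramed ZT12 replicate 1 gave 583 and 431. Calls of a gene or list that are lost with 1 liver left out are to be read beside this loss over all genes. Hepatocyte markers such as Apoa1 and Ttr were abundant in every liver, while Alb, the albumin gene, was listed at 0 in all 12, which in liver is a failed estimate.

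**Figure D1:**
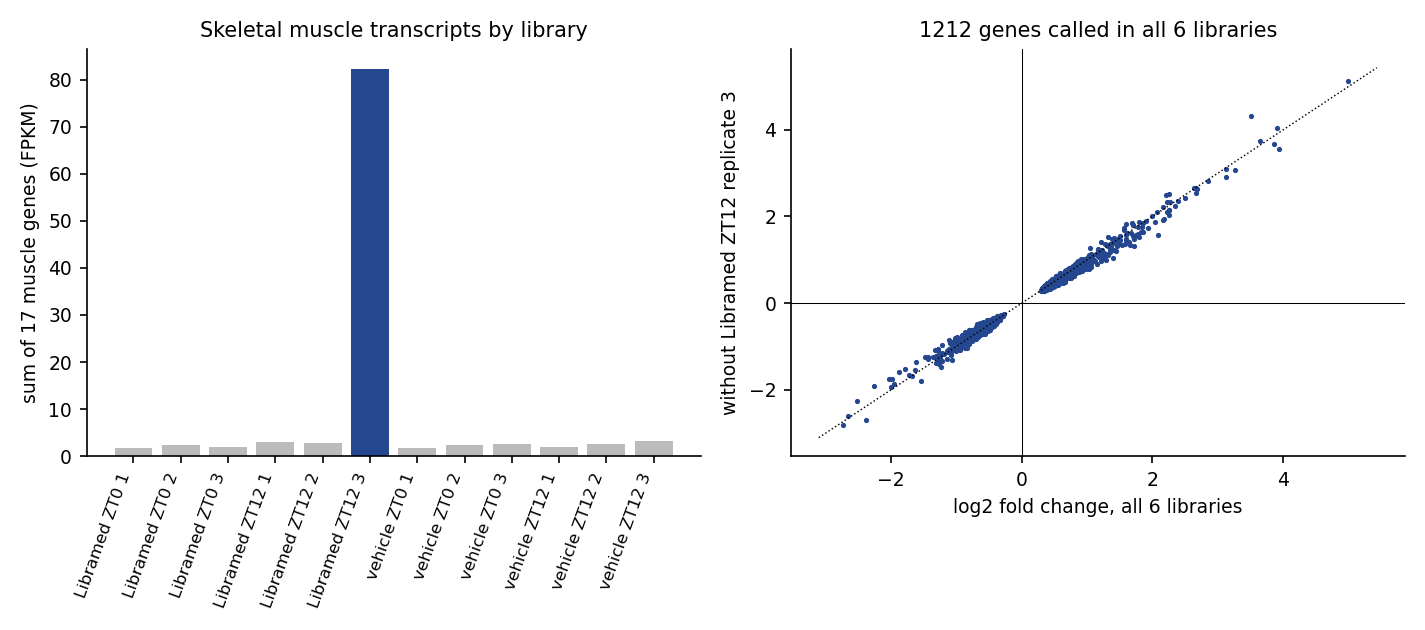
Left, summed FPKM of 17 skeletal muscle genes in each of the 12 livers, where Libramed ZT12 replicate 3 stands at 82.4 FPKM and no other exceeds 3.20. Right, log2 fold change (ZT12 minus ZT0) of the genes called with all 6 Libramed livers, on the x axis, against the same value without that liver, on the y axis, where all points keep their sign and the dotted line marks equality.

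The 10 largest increases named by rule were Mt2, Ccrn4l, Thrsp, Usp2, Mt1, Saa1, Ciart, Upp2, Tsku and Alas1, and the 10 largest decreases were Nr1d1, Cyp4a14, Spon2, Sdf2l1, Hmgcs1, Egr1, Arrdc3, Atf5, Gdf15 and Tubb2a. The rule took only called genes in which the ZT0 and ZT12 mice did not overlap. It also asked for the same direction and an unadjusted limma p under 0.05 without Libramed ZT12 replicate 3, so keeping a call is partly built in. Of all 118 named genes that were called, 72 kept an adjusted p under 0.05 whichever Libramed liver was left out. Among the 20 genes of the rule, 17 did. The exceptions were Saa1 (0.117 without Libramed ZT0 replicate 1, 0.0527 without ZT0 replicate 2, 0.127 without ZT0 replicate 3, 0.0857 without ZT12 replicate 1 and 0.0845 without ZT12 replicate 2), Alas1 (0.0609 and 0.0652 without ZT0 replicates 1 and 2, and 0.0639 without ZT12 replicate 3) and Egr1. Egr1 had 0.103, 0.0574 and 0.104 without ZT0 replicates 1, 2 and 3, and 0.133 and 0.131 without ZT12 replicates 2 and 3.

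Of the remaining genes, Upp2, a uridine phosphorylase, had 28.3, 26.1 and 40.7 FPKM at ZT0 and 218, 263 and 381 FPKM at ZT12. Tsku, a secreted hepatokine, had 20.5, 12.1 and 7.97 FPKM at ZT0 and 95.1, 142 and 120.4 FPKM at ZT12. Among the decreases, the secreted matrix protein Spon2 had 9.31, 12.8 and 8.47 FPKM at ZT0 and 1.31, 1.29 and 0.356 FPKM at ZT12. Arrdc3, an arrestin-domain adaptor, had 62.3, 55.0 and 68.5 FPKM at ZT0 and 25.4, 9.24 and 13.5 FPKM at ZT12.

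The largest rise on the log2(FPKM + 1) scale was that of the metallothionein Mt2 (ENSMUSG00000031762.7, chromosome 8 of mm10, 94172664 to 94173568), a small protein that binds zinc and copper. With a pseudocount of 0.1 the log2 fold changes of Mt2 and Usp2 were both 5.2, and in the ratio of means Usp2 stood higher (45.3 against 36.6 times). Mt2 had 3.21, 7.91 and 5.40 FPKM at ZT0 and 174, 269 and 161 FPKM at ZT12. The mean was 36.6 times higher at ZT12, with a log2 fold change of 4.99 (standard error 0.30, limma adjusted p = 0.00047). Its neighbour and paralog Mt1 had 15.2, 39.4 and 39.6 FPKM at ZT0 and 340, 460.0 and 331 FPKM at ZT12, a log2 fold change of 3.65 (standard error 0.36, limma adjusted p = 0.00235). In both genes all ZT12 mice lay above all ZT0 mice, but the copies are similar and the share of reads given to each is uncertain. In vehicle-treated mice the changes were 3.58 and 2.92, which did not pass the test (limma adjusted p = 0.134 and 0.131).

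Mt2 is shown here for its promoter, because metallothionein genes are known to be switched on by zinc through the factor MTF1, whose short metal response elements hold the letters TGCGCNC or TGCACNC. The 250 bases before the RefSeq start of Mt2 (GRCm38.p6, chr8:94172368-94172617, plus strand) hold these letters 3 times, marked in capitals. On either strand, at least 1 such match was in 25.7% of all 32851 promoters of 300 bases (250 before and 50 after a start), 35.4% of those of genes tested and 37.6% of those of genes called higher, so a match alone is common.
Mt2: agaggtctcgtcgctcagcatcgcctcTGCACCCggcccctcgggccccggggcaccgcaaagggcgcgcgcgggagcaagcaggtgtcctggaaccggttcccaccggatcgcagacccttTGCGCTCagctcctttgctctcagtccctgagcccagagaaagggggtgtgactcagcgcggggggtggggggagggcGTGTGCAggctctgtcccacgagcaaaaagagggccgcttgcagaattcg

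Clock genes were among the largest changes in the Libramed livers. Of 14 tested genes listed with the evening phase and its outputs, 12 rose and 1, Nr1d1, fell, with a median log2 fold change of 1.54. Without any 1 liver, 10 or 11 of them rose. Of 6 genes listed with the morning phase, 2 rose and 3 fell, and 1 rose without ZT0 replicate 3 or ZT12 replicate 2 or 3. With vehicle, 11 genes of the evening list rose and 1, again Nr1d1, fell, with a median of 1.44.

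Among the repressors of the loop, Per1 had 1.58, 2.20 and 3.37 FPKM at ZT0 and 16.2, 15.4 and 17.3 FPKM at ZT12. Its log2 fold change was 2.39 (standard error 0.18, limma adjusted p = 0.00104). Per2 rose by 2.22, from 3.28 ± 0.965 to 18.8 ± 2.82 FPKM (SD, n = 3), and Per3 by 2.07, from 1.84 ± 0.204 to 11.0 ± 2.36 FPKM. In all 3 Per genes each evening mouse stood several-fold above each morning mouse. Ciart, a repressor of ARNTL and CLOCK, had 0.478, 0.747 and 0.512 FPKM at ZT0 and 11.6, 12.8 and 19.1 FPKM at ZT12, a log2 fold change of 3.27 (standard error 0.18, limma adjusted p = 0.000463). Cry1 and Cry2, partners of the Per proteins, rose less, by 0.84 and 0.42, and neither passed without Libramed ZT12 replicate 3 (limma adjusted p = 0.0698 and 0.105). Over single livers left out, Cry2 did not pass in any case and Cry1 also missed without ZT0 replicate 3 or ZT12 replicate 2.

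Among the activators, Arntl had 4.98, 5.80 and 5.72 FPKM at ZT0 and 2.44, 1.18 and 1.19 FPKM at ZT12, a fall of 3.42 times in the mean. Its log2 fold change was -1.35 (standard error 0.18, limma adjusted p = 0.00663). Clock fell by 0.53 on the log2 scale, a call lost without Libramed ZT0 replicate 1 or 2. Of the receptors that bind the Arntl promoter, the repressor Nr1d1 had 41.2, 43.2 and 57.8 FPKM at ZT0 and 7.29, 4.69 and 7.00 FPKM at ZT12, which was 7.49 times lower in the mean, with a log2 fold change of -2.73 (standard error 0.18, limma adjusted p = 0.000819). Nr1d2, the close relative of Nr1d1, had 9.75, 9.57 and 9.82 FPKM at ZT0 and 8.89, 9.08 and 10.2 FPKM at ZT12, with overlapping mice.

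The output factors of the clock also rose. Tef had 22.0, 19.4 and 21.9 FPKM at ZT0 and 45.8, 49.2 and 53.4 FPKM at ZT12 (log2 fold change 1.19, standard error 0.09, limma adjusted p = 0.00104). Dbp rose by 1.44, from 21.9 ± 4.72 to 62.0 ± 18.6 FPKM (SD, n = 3), and Hlf by 0.76, a call lost without Libramed ZT0 replicate 1 or 3 or ZT12 replicate 2 or 3. Nfil3, a repressor that competes with these factors for D-boxes, fell from 25.4 ± 0.260 to 11.7 ± 3.68 FPKM (SD, n = 3), a call lost without ZT12 replicate 2. Usp2, a ubiquitin protease under clock control, rose 45.3 times in the mean, from 0.452 ± 0.186 to 20.4 ± 5.94 FPKM (SD, n = 3). Ccrn4l, named Noct in RefSeq and coding for nocturnin, had 2.53, 1.74 and 2.21 FPKM at ZT0 and 25.7, 49.6 and 82.3 FPKM at ZT12. Wee1, a cell cycle kinase under clock control, rose from 0.759 ± 0.145 to 3.85 ± 0.271 FPKM, and Bhlhe40, a repressor that binds E-boxes, from 21.0 ± 4.36 to 65.3 ± 7.99 FPKM (SD, n = 3).

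**Figure D2:**
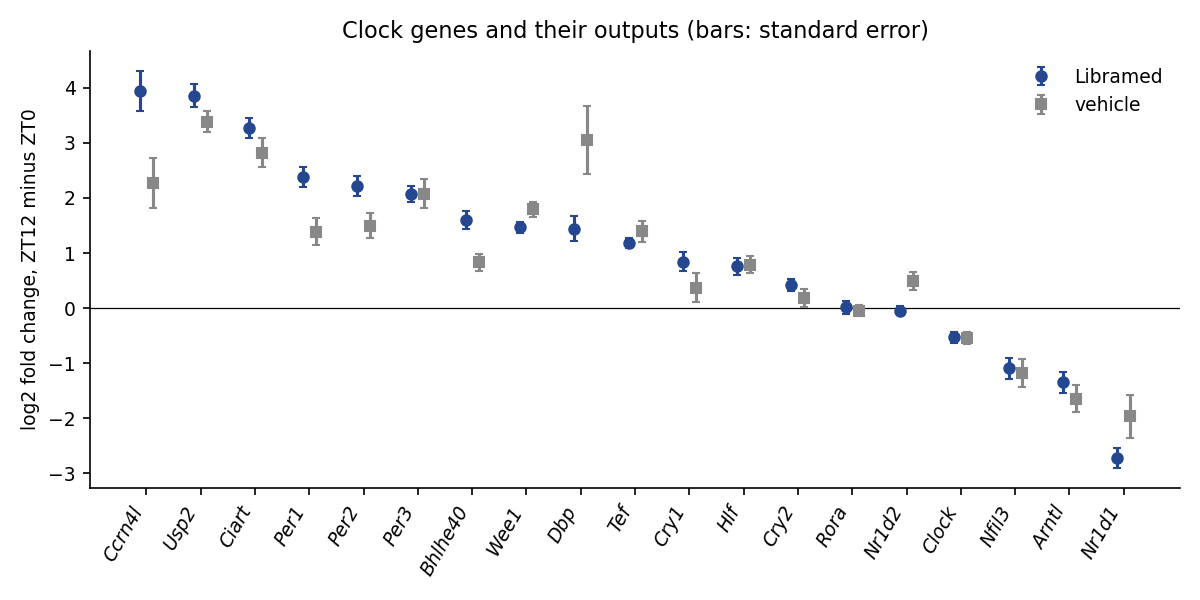
Log2 fold change (ZT12 minus ZT0) of 19 clock and clock output genes on the y axis, with the standard error of the fit as bars, for Libramed mice (blue circles) and vehicle mice (grey squares), 3 mice per group. The genes run from Ccrn4l at 3.94 to Nr1d1 at -2.73 with Libramed, and Dbp stands at 1.44 with Libramed and 3.05 with vehicle.

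The E-box CACGTG that ARNTL and CLOCK bind was searched on both strands of the RefSeq promoters. It was in 7.15% of all 32851 promoters, 10.5% of those of genes tested, 12.4% of those of genes called higher and 8.57% of those of genes called lower. Of the evening genes, 10 had a promoter in the table, and 3 of them (Ciart, Per1 and Tef) held an E-box. The D-box TTATGTAA, bound by DBP, TEF, HLF and NFIL3, was in 0.938% of all promoters, 0.579% of those of genes tested, 1.67% of those of genes called higher and 0.381% of those of genes called lower. The core AGGTCA, which NR1D1 and NR1D2 share with other nuclear receptors, was in 16.3% of all promoters, 13.2% of those of genes tested, 17.3% of those of genes called higher and 12.2% of those of genes called lower. A match of letters does not show that a factor binds. Ciart and Per1 are printed for the 250 bases before a RefSeq start (GRCm38.p6, chr3:95882229-95882478, minus strand, and chr11:69098699-69098948, plus strand), with the E-box in capitals. Ciart holds 3 of them, which begin 116, 58 and 44 bases before the start, and Per1 holds 1. The Per1 start used is a RefSeq start inside the gene as GENCODE draws it (chromosome 11, 69095217 to 69109960).
Ciart: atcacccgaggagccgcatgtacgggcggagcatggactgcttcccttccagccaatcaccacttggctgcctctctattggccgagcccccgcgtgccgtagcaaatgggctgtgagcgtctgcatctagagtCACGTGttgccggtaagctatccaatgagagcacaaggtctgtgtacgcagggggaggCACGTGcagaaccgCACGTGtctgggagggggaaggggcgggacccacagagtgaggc
Per1: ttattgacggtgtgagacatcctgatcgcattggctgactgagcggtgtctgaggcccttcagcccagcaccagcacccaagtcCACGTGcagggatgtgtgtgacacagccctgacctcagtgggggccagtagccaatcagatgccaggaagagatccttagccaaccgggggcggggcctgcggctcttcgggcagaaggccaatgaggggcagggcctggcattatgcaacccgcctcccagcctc

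Some chaperones of the endoplasmic reticulum (ER), and parts of the machinery that degrades its misfolded proteins, were lower in the evening. Of 24 genes tested, 12 fell and the other 12 did not pass, with a median log2 fold change of -0.69 against 0.013 over all genes. Without Libramed ZT12 replicate 3 the number was 10 and the median -0.82. It was also 10 without Libramed ZT0 replicate 2, and 6 without ZT0 replicate 1, ZT0 replicate 3, ZT12 replicate 1 or ZT12 replicate 2. With vehicle, 16 fell and the median was -1.02.

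Calr, a calcium-binding lectin chaperone, had 755, 633 and 665 FPKM at ZT0 and 333, 293 and 343 FPKM at ZT12. Its log2 fold change was -1.08 (standard error 0.10, limma adjusted p = 0.00235). Pdia6, a disulfide isomerase, fell from 213 ± 20.8 to 106 ± 12.5 FPKM (SD, n = 3), and the degradation adaptor Sel1l from 28.4 ± 3.01 to 17.5 ± 1.69 FPKM. In these 3 genes every evening mouse was below every morning mouse. The fall was larger in Sdf2l1, a cofactor of the chaperone BiP, with 119.8, 55.2 and 83.3 FPKM at ZT0 and 12.2, 11.3 and 24.2 FPKM at ZT12 (5.41 times lower in the mean). BiP itself, Hspa5 (ENSMUSG00000026864.13, chromosome 2 of mm10, 34771970 to 34777547), had 719, 451 and 617 FPKM at ZT0 and 249, 220.0 and 402 FPKM at ZT12. Its log2 fold change of -1.06 (standard error 0.26, limma adjusted p = 0.0411) was lost without ZT0 replicate 1 or 3 or ZT12 replicate 1 or 2 (adjusted p between 0.0971 and 0.117).

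For Hspa5, Sdf2l1, Manf, Hyou1 and Creld2 the liver with muscle transcripts was the highest of the 3 at ZT12. Manf, a secreted ER protein, had 31.9, 24.0 and 49.2 FPKM there, and Hyou1, a large chaperone, 26.5, 26.3 and 42.4 FPKM. The log2 fold changes of all 5 were further below 0 without that liver, at -1.32 for Hspa5, -2.70 for Sdf2l1, -1.80 for Manf, -1.46 for Hyou1 and -1.57 for Creld2. The call of Creld2 was not reached in either fit, and those of Manf and Hyou1 were lost without ZT0 replicate 1 or 3 or ZT12 replicate 1 or 2. Several further members did not pass, with either sign of change. Herpud1, which serves ER-associated degradation, had 361, 249 and 396 FPKM at ZT0 and 389, 392 and 627 FPKM at ZT12. Its log2 fold change was 0.47 (limma adjusted p = 0.244). Xbp1, a transcription factor of the unfolded protein response, had a log2 fold change of -0.49 (limma adjusted p = 0.065).

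Promoters of ER chaperones are known for the ER stress element, whose boxes CCAAT and CCACG lie 9 bases apart and are bound by NF-Y and ATF6. Both boxes at that spacing were in 39 of 32851 promoters (0.119%) and in 14 of 9501 promoters of genes tested (0.147%). Of the ER genes, 21 had a promoter in the table, and 9 of these held the element. Of the 525 promoters of genes called lower 6 held it (1.14%), and all 6 belong to ER genes (Hspa5, Calr, Pdia6, Hsp90b1, Canx and Dnajc3). Of the 659 promoters of genes called higher 0 held it. The element is so rare among genes tested (0.147%) that this 0 gives no contrast. The ER list is made of the gene class known for the element, so its part in the fall was not tested. The other ER genes that fell did not hold it or had no promoter in the table. Sdf2l1 and Sel1l are among those that fell, had a promoter and did not hold it. Tested genes outside the ER list that held it were not called. The 10 matches are printed with 10 bases on each side, turned so that CCAAT comes first, with both boxes in capitals, to show the shared letters beside the members that fell. Their places in GRCm38.p6, with the strand printed, are Hspa5 (chr2:34772015-34772053, plus strand), Calr (chr8:84847065-84847103, plus strand), Pdia6 (chr12:17266481-17266519, plus strand), Hsp90b1 (chr10:86705628-86705666, minus strand), Hsp90b1 (chr10:86705523-86705561, plus strand), Canx (chr11:50325790-50325828, minus strand), Dnajc3 (chr14:118937817-118937855, plus strand), Creld2 (chr15:88819510-88819548, minus strand), Syvn1 (chr19:6046522-6046560, plus strand) and Derl3 (chr10:75893232-75893270, minus strand).
Hspa5: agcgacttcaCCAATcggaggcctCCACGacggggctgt
Calr: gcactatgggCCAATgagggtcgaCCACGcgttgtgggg
Pdia6: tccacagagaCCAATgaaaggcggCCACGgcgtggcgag
Hsp90b1: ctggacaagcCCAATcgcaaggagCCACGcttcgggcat
Hsp90b1: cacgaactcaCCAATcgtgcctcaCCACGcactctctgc
Canx: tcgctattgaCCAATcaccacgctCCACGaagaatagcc
Dnajc3: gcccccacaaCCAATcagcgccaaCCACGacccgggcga
Creld2: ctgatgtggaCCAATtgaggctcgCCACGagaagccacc
Syvn1: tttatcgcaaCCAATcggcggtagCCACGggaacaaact
Derl3: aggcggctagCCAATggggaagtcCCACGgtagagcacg

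Of these 9 genes, Calr, Pdia6 and Hspa5 are given above. Hsp90b1, the ER form of HSP90, fell by 0.71 on the log2 scale, Canx, a membrane lectin chaperone, by 0.48, and Dnajc3, a BiP cochaperone, by 0.50. The calls of Hsp90b1 and Dnajc3 were lost without Libramed ZT12 replicate 3 (limma adjusted p = 0.0501 and 0.0577), Canx kept its call there (0.0430), and all 3 were also lost without 4 or more of the other 5 livers. Creld2, Syvn1 and Derl3 did not pass (limma adjusted p = 0.0925, 0.107 and 0.301), and Derl3 spread from 1.92 to 11.7 FPKM at ZT0 alone.

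Some transcripts of cholesterol synthesis enzymes were lower in the evening. Of 24 genes tested, 7 fell and 17 did not pass, with a median log2 fold change of -0.83. Without Libramed ZT12 replicate 3 the number was 4 and the median -0.54, and without Libramed ZT0 replicate 2 or 3 it was 3. Hmgcs1, which makes HMG-CoA, had 165, 289 and 243 FPKM at ZT0 and 50.6, 69.6 and 28.6 FPKM at ZT12, a log2 fold change of -2.26 (standard error 0.33, limma adjusted p = 0.00856). Mvk, mevalonate kinase, fell from 48.4 ± 8.72 to 17.4 ± 3.89 FPKM (SD, n = 3), and Cyp51, lanosterol demethylase, from 83.8 ± 10.8 to 27.9 ± 11.2 FPKM. Idi1 and Fdft1, further enzymes of the pathway, fell by 1.43 and 1.22 on the log2 scale. Idi1 missed the threshold without ZT0 replicate 2 or 3 or ZT12 replicate 3, and Fdft1 without ZT0 replicate 2 or 3. The liver with muscle transcripts was the lowest of the 3 at ZT12 in Hmgcs1, Mvk, Cyp51, Idi1, Fdft1 and Sqle.

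Srebf2, the transcription factor of the pathway, had 19.8 ± 2.92 and 14.4 ± 1.30 FPKM (SD, n = 3; limma adjusted p = 0.0636). The sterol response element is printed in the promoter of Hmgcs1, the member that fell most, as the 250 bases before its RefSeq start (GRCm38.p6, chr13:119690101-119690350, plus strand). Its letters TCACNCCAC, searched on both strands, are in capitals. They were in 1.24% of all promoters and 1.26% of those of genes tested. The share was 0.91% for genes called higher and 1.90% for genes called lower, with Hmgcs1 among the latter. Hmgcs1 was the only one of the 16 cholesterol genes with a promoter in the table to hold them.
Hmgcs1: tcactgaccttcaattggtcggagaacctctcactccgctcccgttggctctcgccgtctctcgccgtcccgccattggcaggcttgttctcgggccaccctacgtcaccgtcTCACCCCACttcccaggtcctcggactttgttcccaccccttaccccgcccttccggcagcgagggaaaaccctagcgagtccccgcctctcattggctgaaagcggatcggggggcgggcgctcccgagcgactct

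Tubulins, the subunits of microtubules, fell in 6 of 9 genes tested, with a median log2 fold change of -0.85. Without Libramed ZT12 replicate 3, and also without ZT0 replicate 1, ZT0 replicate 3 or ZT12 replicate 2, 4 passed. Tubb5 had 35.2, 27.1 and 30.3 FPKM at ZT0 and 12.7, 12.4 and 11.5 FPKM at ZT12 (log2 fold change -1.27, standard error 0.11, limma adjusted p = 0.00153). Tubb2a and Tubb4b fell 3.63 and 2.20 times in the mean, and Tuba1a 3.36 times at a low level (2.18 ± 0.505 to 0.650 ± 0.246 FPKM; SD, n = 3). Because tubulin genes share much of their coding sequence, the split of reads between them is uncertain.

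Among stress genes outside the ER, targets of ATF4 and of amino acid shortage fell in 3 of 15 cases (20%, against 5.36% over all genes). The 1 that rose is 6.67% of the list, against 7.00% over all genes (Shmt2, by 0.33, not called without any 1 liver). Atf5, a transcription factor of that response, had 399.9, 499 and 444 FPKM at ZT0 and 173, 99.9 and 81.6 FPKM at ZT12. Gdf15, a stress hormone, fell from 15.6 ± 4.52 to 3.22 ± 0.685 FPKM (SD, n = 3), and Nupr1 fell by 0.95 on the log2 scale, a call lost without ZT0 replicate 2 or ZT12 replicate 2 or 3. In contrast, Ddit3, the factor CHOP, had 17.9, 16.6 and 20.8 FPKM at ZT0 and 11.6, 12.5 and 26.2 FPKM at ZT12, with the highest value in the liver with muscle transcripts. Of 18 heat shock genes, Hspb8 rose by 0.62, a call lost without ZT0 replicate 1 or 3 or ZT12 replicate 2 or 3, and the other 17 did not pass. That 1 call is 5.56% of the list, against 7.00% over all genes. The inducible Hspa1a and Hspa1b spread widely at ZT12, with 0.779, 2.41 and 8.48 FPKM and with 3.68, 16.9 and 43.6 FPKM, again highest in that liver. Of 9 immediate early genes, 3 fell, and 1 without ZT0 replicate 1, ZT0 replicate 2 or ZT12 replicate 2. The factor Egr1 was among them, with 20.4, 5.90 and 8.89 FPKM at ZT0 and 4.44, 1.12 and 0.887 FPKM at ZT12.

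**Figure D3:**
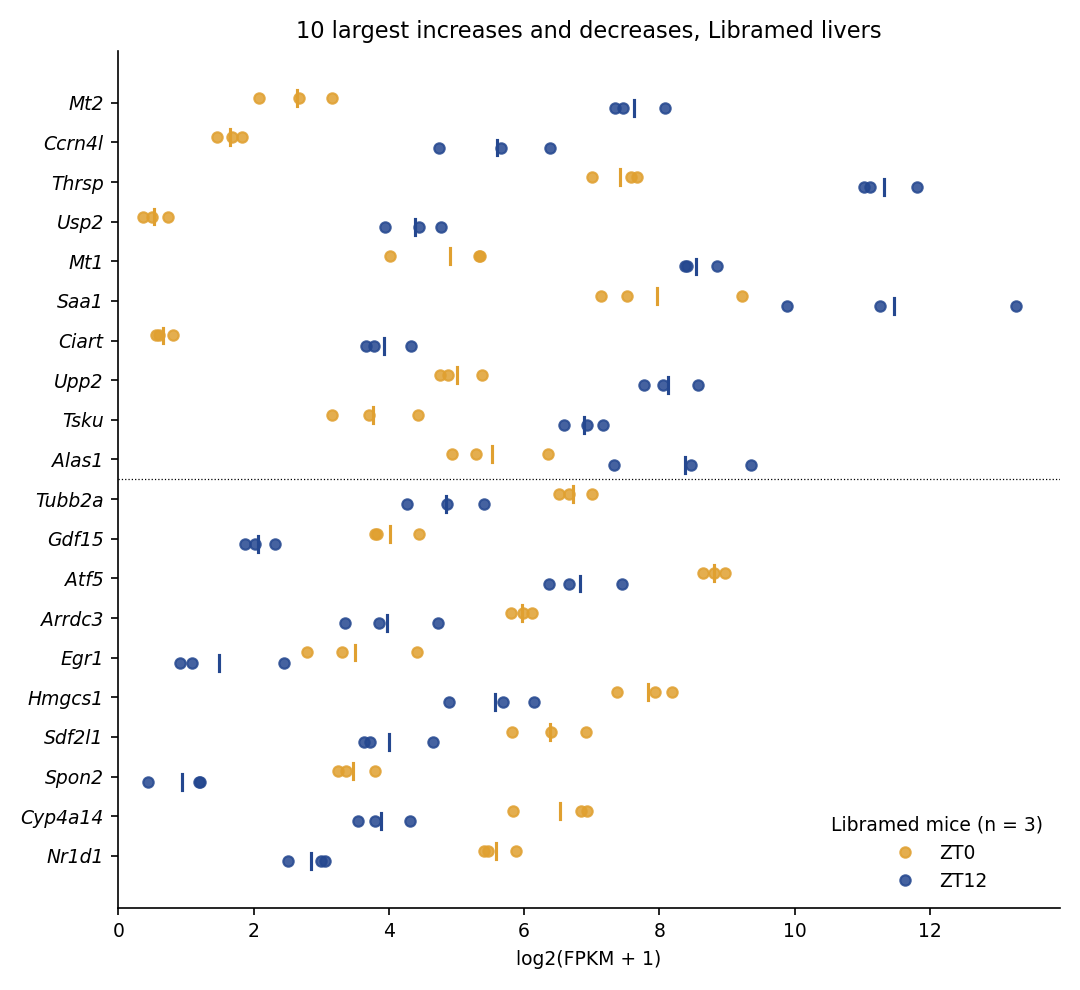
Log2(FPKM + 1) of the 10 largest increases (above the dotted line) and 10 largest decreases (below it) in each Libramed liver, with ZT0 mice in orange, ZT12 mice in blue, 3 mice each, and a tick at each group mean. The genes were chosen for times that do not overlap, and Saa1 spreads most among the ZT12 mice, from 942 to 9887 FPKM.

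Of 17 genes of gluconeogenesis and glucose handling tested, 8 rose in the evening, 1 fell and 8 did not pass, with a median log2 fold change of 0.43. Without Libramed ZT0 replicate 1 or 3 or ZT12 replicate 2 or 3, 5 rose. The number that fell was 1 without ZT0 replicate 3 and 0 without any other single liver. Pck1, which commits oxaloacetate to gluconeogenesis, had 371, 367 and 497 FPKM at ZT0 and 1269, 1090.4 and 2044 FPKM at ZT12 (log2 fold change 1.79, standard error 0.24, limma adjusted p = 0.00638). G6pc, the catalytic subunit that releases glucose, rose from 80.8 ± 24.7 to 285 ± 41.6 FPKM and its transporter partner Slc37a4 from 84.7 ± 8.98 to 201 ± 22.3 FPKM (SD, n = 3). The amino acid enzyme Sds, which makes pyruvate from serine, had 156, 107 and 169.5 FPKM at ZT0 and 420.2, 363 and 357 FPKM at ZT12. All 4 kept their calls without the liver with muscle transcripts.

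Glycogen genes moved less as a group, with 3 of 14 higher and a median of 0.056. Gys2, liver glycogen synthase, had 47.7, 47.6 and 48.9 FPKM at ZT0 and 107, 98.5 and 129 FPKM at ZT12, and Ppp1r3b, which brings a phosphatase to glycogen, rose from 69.5 ± 14.9 to 142 ± 19.2 FPKM (SD, n = 3). Among genes of insulin and IGF signalling, 5 of 17 rose and 3 fell, but 1 rose without ZT0 replicate 1 or 2 or ZT12 replicate 2 or 3, and 2 without ZT0 replicate 3. Between 1 and 2 fell when 1 liver was left out, with 1 without ZT0 replicate 2 or 3. The receptor adaptors Irs1 and Irs2 fell from 3.44 ± 0.292 to 1.92 ± 0.161 FPKM (SD, n = 3) and from 1.86, 1.66 and 2.06 FPKM to 0.803, 0.446 and 1.08 FPKM. Irs2 was lost without any 1 liver but ZT12 replicate 3. The binding protein Igfbp4 rose from 842 ± 79.5 to 1354 ± 69.2 FPKM, while Igfbp3 fell from 5.26 ± 1.26 to 1.90 ± 0.731 FPKM, a call lost without ZT0 replicate 2 or 3 or ZT12 replicate 3 (SD, n = 3).

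Glucocorticoids peak before waking in mice. Of a list of 19 genes, made up of genes known to be induced by them and of their receptor Nr3c1, 9 rose and the other 10 did not pass. The median log2 fold change was 1.29, and between 7 and 10 rose when 1 liver was left out. With vehicle, 3 of the 19 rose and the median was 0.55. The list holds Mt1, Mt2 and Per1, described above. Cebpb, a factor of gluconeogenic and acute-phase genes, had 51.6, 49.8 and 45.3 FPKM at ZT0 and 149, 133 and 136 FPKM at ZT12 (log2 fold change 1.49, standard error 0.09, limma adjusted p = 0.00047). Zbtb16, a factor strongly induced by glucocorticoids, rose from 1.03 ± 0.0973 to 9.47 ± 2.42 FPKM and Fkbp5, a cochaperone of their receptor, from 5.44 ± 3.04 to 24.0 ± 6.83 FPKM (SD, n = 3). Fkbp5 was lost without ZT0 replicate 2 or ZT12 replicate 2 or 3. Tat, tyrosine aminotransferase, had 373, 411 and 441 FPKM at ZT0 and 1013, 891 and 1397 FPKM at ZT12. Nr3c1, the glucocorticoid receptor, was at 8.53 ± 0.211 and 7.83 ± 0.0613 FPKM (SD, n = 3; limma adjusted p = 0.353).

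Amino acid enzymes rose in 7 of 24 cases and fell in 1, with a median of 0.37. Asl, which releases arginine in the urea cycle, had 389, 344 and 417 FPKM at ZT0 and 951, 846 and 843 FPKM at ZT12. Prodh, which degrades proline, rose from 111 ± 15.5 to 252 ± 16.1 FPKM, and the glutamine transporter Slc38a3 from 488 ± 47.5 to 827 ± 28.5 FPKM (SD, n = 3). Gldc, of glycine cleavage, fell from 56.1 ± 0.634 to 36.9 ± 3.72 FPKM (SD, n = 3).

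Lipid genes did not move as one block. Of 20 genes of fatty acid synthesis, 3 rose (15%, against 7.00% over all genes) and 1 fell (5%, against 5.36%). The median log2 fold change was 0.59 and ranged from 0.17 to 0.90 when 1 liver was left out. Without Libramed ZT0 replicate 1 or 3 or ZT12 replicate 2, 1 rose. Thrsp, a nuclear and cytosolic protein of lipogenic tissues, had 127, 189.8 and 201 FPKM at ZT0 and 3565, 2216 and 2086 FPKM at ZT12, 15.2 times higher in the mean (log2 fold change 3.90, standard error 0.25, limma adjusted p = 0.000659). The lipogenic factor Srebf1 had 80.9, 93.1 and 88.2 FPKM at ZT0 and 215, 213 and 129.6 FPKM at ZT12, a call lost without ZT0 replicate 1 or 3 or ZT12 replicate 2. Insig2, which holds SREBPs in the ER, fell from 104 ± 16.2 to 42.1 ± 5.20 FPKM (SD, n = 3). Fasn, fatty acid synthase, had 41.1, 95.2 and 71.2 FPKM at ZT0 and 267, 142 and 70.7 FPKM at ZT12, and the times overlapped.

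Of 22 genes of fatty acid oxidation and ketogenesis, 6 rose and 2 fell, with a median of 0.11. The number that rose was 2 without Libramed ZT0 replicate 3 or ZT12 replicate 2 or 3. Angptl4, an inhibitor of lipoprotein lipase, rose from 47.8 ± 6.86 to 142 ± 36.0 FPKM (SD, n = 3). Both omega-hydroxylases of the list fell. Cyp4a14 had 55.8, 121 and 114 FPKM at ZT0 and 18.8, 10.7 and 12.9 FPKM at ZT12 (log2 fold change -2.65, standard error 0.32, limma adjusted p = 0.0044), and Cyp4a10 fell from 103 ± 25.2 to 42.0 ± 7.76 FPKM (SD, n = 3). These 2 genes are close copies. With vehicle they had log2 fold changes of 1.69 and 0.56 that did not pass (limma adjusted p = 0.476 and 0.6).

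Of 21 genes of lipid droplets and triglycerides, 6 rose and 2 fell. Without Libramed ZT0 replicate 1 or ZT12 replicate 2 or 3, 2 rose, and 0 or 1 fell without any 1 liver. Lpin1, which makes diacylglycerol and acts as a coactivator, had 5.46, 7.78 and 9.68 FPKM at ZT0 and 33.7, 68.8 and 63.1 FPKM at ZT12 (log2 fold change 2.67, standard error 0.29, limma adjusted p = 0.00345). Dgat2, which completes triglycerides, rose from 276 ± 18.8 to 452 ± 22.9 FPKM (SD, n = 3). Plin2, the droplet coat protein of hepatocytes, fell from 312 ± 46.6 to 204 ± 20.1 FPKM (SD, n = 3), a call lost without ZT0 replicate 1 or 2 or ZT12 replicate 2 or 3. Among genes of sphingolipid and phospholipid synthesis, 3 of 15 rose and 2 fell, but 0 rose without any of the 3 ZT0 mice or ZT12 replicate 2, and 1 without ZT12 replicate 3. Without any 1 liver other than ZT12 replicate 1, 1 fell. The elongase Elovl3 of that list, which lengthens fatty acids, had 359, 203 and 286 FPKM at ZT0 and 94.8, 77.9 and 77.2 FPKM at ZT12.

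Bile acid and sterol export genes rose in 7 of 17 cases and fell in 2, and between 1 and 6 rose when 1 liver was left out. The count was 3 without Libramed ZT0 replicate 1, 4 without ZT0 replicate 2 or 3, 1 without ZT12 replicate 2 and 2 without ZT12 replicate 3. Abcg5, a subunit of the biliary sterol exporter, had 30.7, 23.8 and 34.0 FPKM at ZT0 and 54.6, 64.0 and 66.8 FPKM at ZT12. Cyp7a1, the rate-limiting enzyme of bile acid synthesis, had 4.56, 18.1 and 12.8 FPKM at ZT0 and 36.7, 54.7 and 43.2 FPKM at ZT12, a log2 fold change of 2.00 (limma adjusted p = 0.0264) that was lost without ZT0 replicate 3 or ZT12 replicate 2 or 3. The next enzyme Hsd3b7 fell from 458 ± 9.74 to 254 ± 38.6 FPKM and the bile salt exporter Abcb11 from 126 ± 24.1 to 62.3 ± 6.16 FPKM (SD, n = 3).

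Drug metabolism rose in 8 of 22 genes and fell in 1, with a median log2 fold change of 0.45. The number that fell was 1 without ZT12 replicate 2 and 0 without any other single liver. Por, the electron donor of microsomal P450 enzymes, had 47.6, 69.4 and 97.5 FPKM at ZT0 and 272, 351 and 377 FPKM at ZT12 (log2 fold change 2.25, standard error 0.25, limma adjusted p = 0.00368). Cyp2a5 rose from 175 ± 33.8 to 634 ± 173 FPKM and the xenobiotic receptor Nr1i3 from 129 ± 12.3 to 241 ± 37.4 FPKM (SD, n = 3). Alas1, the first enzyme of heme synthesis, had 38.2, 29.5 and 81.0 FPKM at ZT0 and 159.7, 654 and 352 FPKM at ZT12. Nampt, which limits NAD salvage, rose from 6.19 ± 0.644 to 17.5 ± 3.25 FPKM (SD, n = 3). Of 12 NAD genes 3 rose, and 1 without ZT0 replicate 3 or ZT12 replicate 3. Of 25 genes of ribosome biogenesis 4 rose, but 1 or 2 without any 1 liver other than ZT12 replicate 1. Of 17 genes of iron and heme handling, 2 rose (11.8%, against 7.00% over all genes), and 1 without ZT0 replicate 1 or 2 or ZT12 replicate 3. The single one that fell (5.88%, against 5.36% over all genes) lost its call without any 1 liver. Of 2 cold-inducible RNA-binding genes, 0 passed in limma.

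Of 23 acute-phase genes, 3 were higher (13%, against 7.00% over all genes) and 2 lower (8.7%, against 5.36%). The number lower was 0 without ZT0 replicate 3 or ZT12 replicate 2 or 3, and 1 without ZT0 replicate 1 or 2. Orm3, an orosomucoid, had 0.333, 1.38 and 1.20 FPKM at ZT0 and 12.2, 10.1 and 10.3 FPKM at ZT12 (log2 fold change 2.63, standard error 0.22, limma adjusted p = 0.00135). Hamp, hepcidin, which lowers plasma iron, rose from 1588 ± 487 to 4608 ± 718 FPKM (SD, n = 3). The serum amyloid Saa1 had 183, 593 and 139.8 FPKM at ZT0 and 2459.8, 9887 and 942 FPKM at ZT12, and its near copy Saa2 had 61.1, 146 and 33.7 FPKM and 573, 6168 and 227 FPKM (limma adjusted p = 0.0764). Libramed ZT12 replicate 2 was the highest in both. In that liver 6 neutrophil markers summed to 18.2 FPKM, against 0.807 to 11.0 FPKM in the other 11. Most of that sum was S100a9 (11.05 FPKM) and S100a8 (6.315 FPKM). The other markers were low there, with Elane at 0.781, Mpo at 0.077, Cxcr2 at 0.021 and Retnlg at 0 FPKM. The part of neutrophils in the rise of Saa1 was not tested. The fibrinogen chains Fga and Fgg fell by 0.47 each, and both calls were lost without ZT0 replicate 3 or ZT12 replicate 2 or 3, that of Fgg also without ZT0 replicate 1 or 2.

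**Figure D4:**
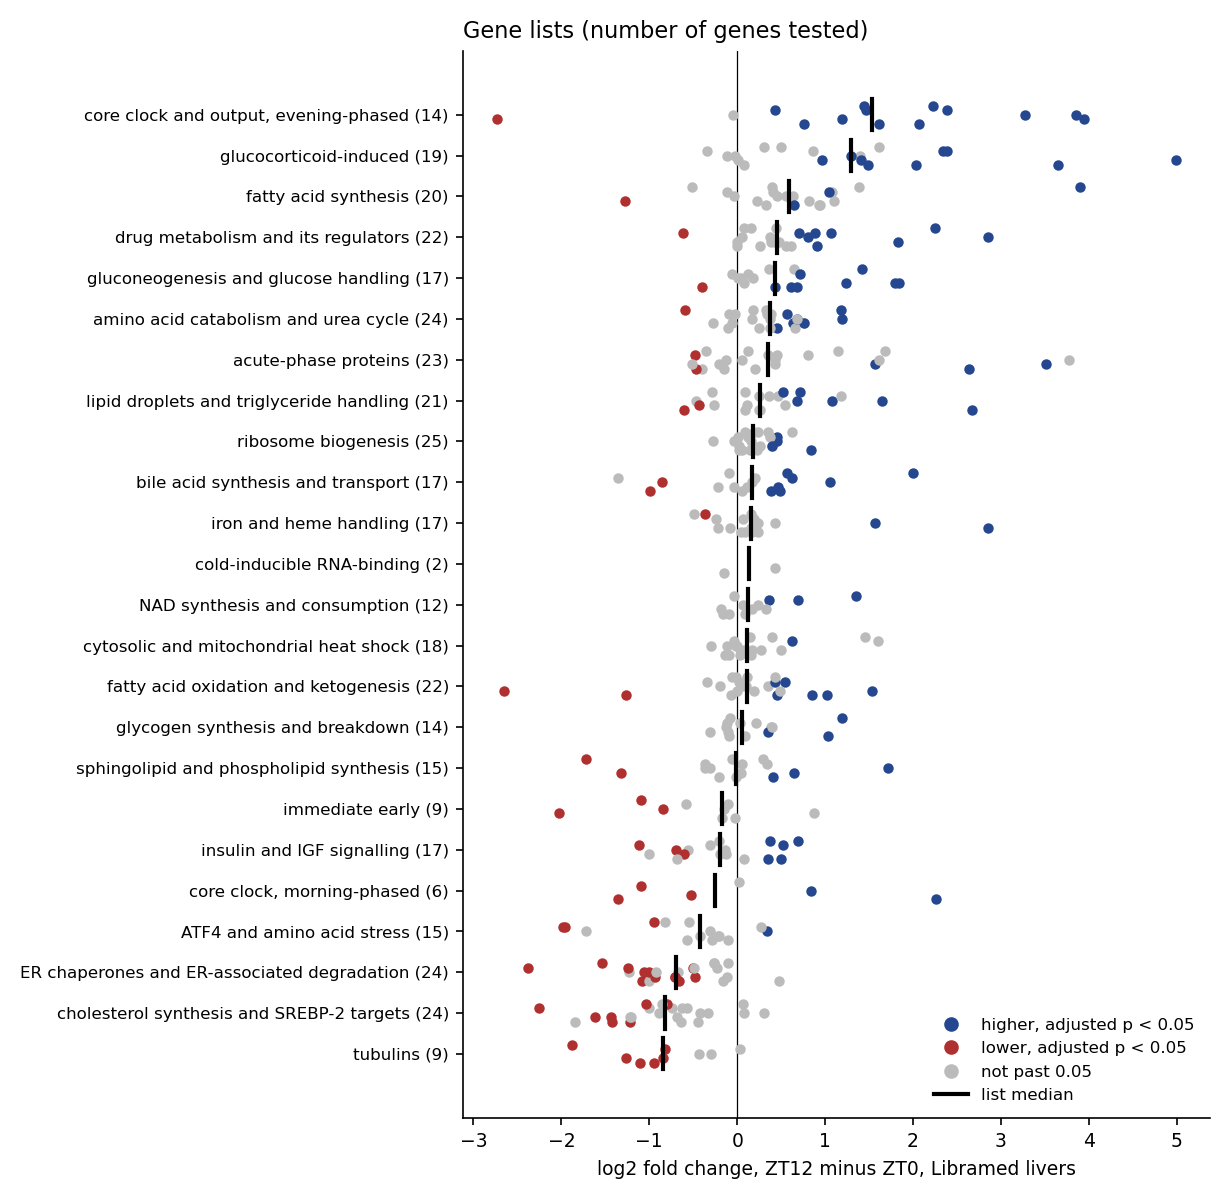
Log2 fold change (ZT12 minus ZT0, x axis) of every tested gene in 24 lists of the Libramed livers, 1 point per gene, blue if called higher, red if called lower and grey if not past an adjusted p of 0.05, with the list median as a black bar. The lists run from evening clock genes with a median of 1.54 to tubulins with a median of -0.85.

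Some markers of other liver cells were also lower in the evening. Of 8 endothelial markers tested, 3 were called lower, with a median log2 fold change of -0.45, and the summed level of the 10 endothelial markers was 50.6 to 61.7 FPKM at ZT0 and 33.9 to 37.1 FPKM at ZT12. Of 8 stellate cell and fibroblast markers, 4 were called lower, with a median of -0.47 and sums of 54.7 to 77.7 and 27.2 to 47.0 FPKM. Clec4g was the largest part of the endothelial sum and Dcn that of the stellate sum. The other 5 endothelial and 4 stellate markers tested did not pass. Among them, endothelial Stab1 had 3.13, 3.43 and 3.42 FPKM at ZT0 and 3.41, 3.29 and 3.41 FPKM at ZT12. Clec4g of sinusoidal endothelium fell from 26.1 ± 3.62 to 15.2 ± 0.357 FPKM and Pdgfrb of stellate cells from 1.58 ± 0.223 to 0.665 ± 0.204 FPKM (SD, n = 3), the latter lost without ZT0 replicate 2 or 3 or ZT12 replicate 2 or 3. Without Libramed ZT12 replicate 3, 2 endothelial and 1 stellate marker were called lower. Macrophage markers did not pass in any of 9 genes, with sums of 53.5 to 84.5 FPKM at ZT0 and 51.5 to 82.4 FPKM at ZT12. The part of these cells in the genes called lower was not tested.

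The change over time in the Libramed livers was then set beside that in the vehicle livers, which share no mice with it. With vehicle, 551 genes were called higher and 469 lower (5.62% and 4.78%). Of the 686 and 526 genes called with Libramed, 311 and 223 were also called with vehicle in the same direction, and 662 and 503 had the same sign there. Across all genes the log2 fold changes of the treatments had a Pearson r of 0.637 and a Spearman rho of 0.668, which describe genes that are not independent of each other. The interaction of time and treatment, fitted on the 12 livers, had p under 0.05 for 650 genes (6.63%), and after adjustment 0 genes passed in limma (0%; smallest adjusted p = 0.337). No change over time can thus be called particular to the Libramed livers.

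**Figure D5:**
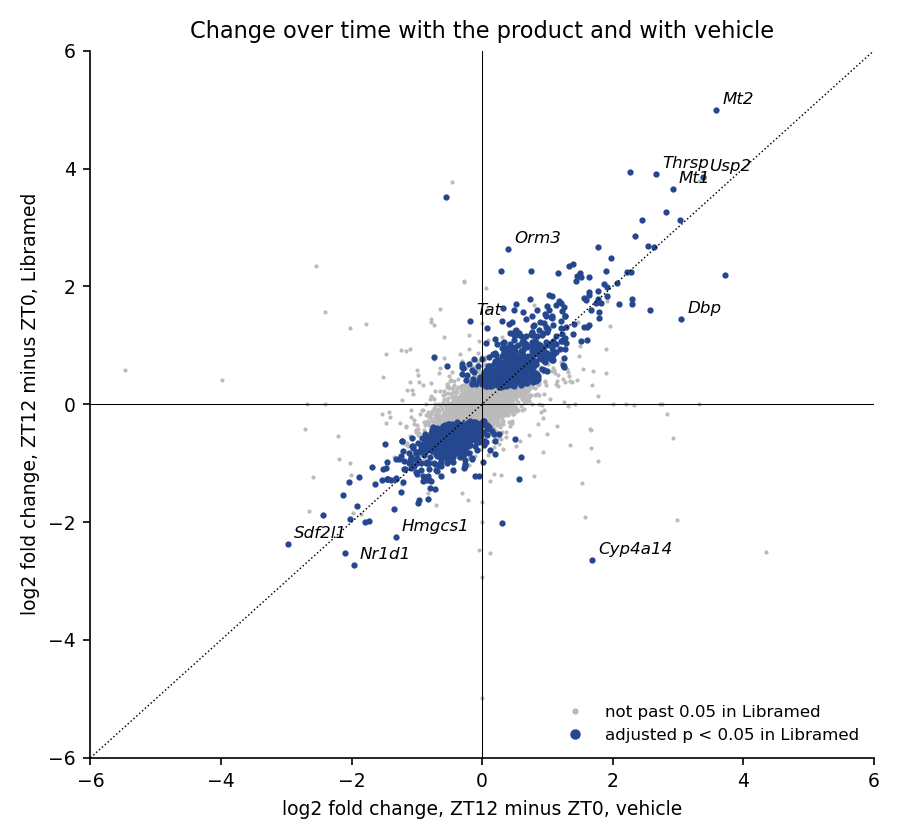
Log2 fold change (ZT12 minus ZT0) of 9806 genes with vehicle (x axis) and Libramed (y axis), with genes called with Libramed in blue, the others in grey and equal change as a dotted line. Most blue points share their sign between treatments, while Cyp4a14 stands at -2.65 with Libramed and 1.69 with vehicle. With vehicle its ZT0 mice (166, 8.65 and 2.77 FPKM) and ZT12 mice (36.1, 35.1 and 151 FPKM) overlapped.

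The 6 named genes with the smallest unadjusted p of the interaction are given as values, since their adjusted p was 0.337 in each case. Sgms2, a sphingomyelin synthase, had 9.19, 9.47 and 8.98 FPKM at ZT0 and 4.08, 4.05 and 4.13 FPKM at ZT12 with Libramed, a log2 fold change of -1.01 against -0.26 with vehicle. Slc25a51, which carries NAD into mitochondria, rose from 7.92 ± 0.611 to 26.3 ± 5.09 FPKM (SD, n = 3), by 1.60 against 0.49. Hspb8 and Nnmt, a small heat shock protein and nicotinamide methyltransferase, had log2 fold changes of 0.62 and 0.69 with Libramed and -0.29 and -0.31 with vehicle, and Nnmt lost its call over time without ZT0 replicate 3 or ZT12 replicate 3. Cyp2c67, a P450 of a family with close copies, had -0.90 and 0.59. Edem1, of ER-associated degradation, had 30.3 ± 1.18 and 28.1 ± 1.28 FPKM with Libramed (SD, n = 3; log2 fold change -0.10) and a log2 fold change of -0.69 with vehicle.

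Among the lists, heat shock genes had an interaction p under 0.05 in 9 of 18 cases, beside 6.63% of all genes, with a median log2 fold change of 0.12 with Libramed and -0.47 with vehicle. The median with Libramed was -0.029 without the liver with muscle transcripts, and the count of 9 was not taken without it. For fatty acid oxidation the number was 7 of 22, for the evening clock genes 6 of 14, for ER genes 5 of 24 and for the glucocorticoid list 5 of 19. The other lists had lower counts, though the share was above that of the ER genes for gluconeogenesis (4 of 17) and immediate early genes (3 of 9). It was 0 of 24 for cholesterol synthesis, 0 of 20 for fatty acid synthesis, 0 of 17 for bile acid genes and 0 of 9 for tubulins. Tat had log2 fold changes of 1.41 with Libramed and -0.19 with vehicle (limma interaction 1.60, adjusted p = 0.519). Orm3 had 2.63 and 0.39 (limma interaction 2.24, adjusted p = 0.428), so neither passed over all genes.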

How the data were processed

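Liver RNA of 12 mice, 3 per group, was measured by RNA-seq, and groups were taken from the sample labels. The authors deposited FPKM values per gene and library. The methods name ELAND and call the unit RPKM, the labels name TopHat and Cuffnorm, the methods describe stranded libraries and the labels the unstranded TruSeq RNA v2 kit, so the tool chain is unsettled, while both name mm10. Of 24138 lines, 289 repeated a symbol, of which only the line of highest mean was used. No counts were used. The depth is known only relative to 1 library, from genes with a mean under 0.1 FPKM (0.703 to 1.26), and the spread of 3 mice sets the precision. The labels call the 3 libraries of a group biological replicates and give no batch.

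The log2(FPKM + 1) of the deposited values was tested where the mean reached 1 FPKM, with limma 3.58.1 in R 4.3.3 (lmFit, eBayes with trend), two-sided, Benjamini-Hochberg adjusted over 9806 genes, 185 of whose symbols name several genes. A pseudocount understates changes of low genes. ZT12 minus ZT0 was fitted on the 6 Libramed libraries and the interaction on all 12. Calculations were tested on simulated data. Members and lists were chosen with earlier results of these data known. Named genes are the 10 largest increases and decreases (called, not overlapping, same direction with p under 0.05 without Libramed ZT12 replicate 3, single named genes), per list up to 4 members with the smallest p and its defining members, and the 6 smallest interaction p. Promoters came from RefSeq (GRCm38.p6; 7428 of the genes tested), positions from GENCODE vM21. Leaving out each library for list counts was added after seeing the data. Some genes are not reported here.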

Additional observations from a re-analysis of the deposited data

How the results depend on the processing

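The number of genes higher and lower at ZT12 with Libramed (686 and 526) stayed within 1.5 times under a pseudocount of 0.1, a minimum mean of 5 FPKM, median-ratio scaling, quantile normalization, a fit of all 12 libraries and eBayes without trend. It was 367 and 272 with no minimum FPKM, where 17066 genes were tested, 439 and 350 with an absolute log2 fold change of at least 0.5, and 1542 and 1318 at unadjusted p under 0.05. Leaving out 1 library gave 304 to 583 and 231 to 431. Quantile normalization moved the balance to 619 higher and 632 lower. With the replicate number as a block the counts were 416 and 293. The numbers pair no mice in the labels, and same-numbered mice deviated together with correlations of -0.020, 0.26 and -0.099, so this block was not taken as a pairing. No gene passed the interaction under any other scaling, minimum or pseudocount or with the block (smallest adjusted p = 0.0972, with quantile normalization). The count was 650 unadjusted and 0 to 1 with 1 library left out. The single genes were Sgms2 without vehicle ZT12 replicate 2 (adjusted p = 0.0484) and the small RNAs Mir6353, seen in 2 libraries, without Libramed ZT0 replicate 1 and Snora17, also seen in 2, without vehicle ZT12 replicate 3. Of 134 genes followed across alternatives, 118 were called, and 63 of these passed under every one. None of the 134 changed sign in any alternative. List medians moved by more than their spread between mice in 6 cases, against 162 that did not, and in 5 against 139 with 1 library left out. No counting error is known for low genes, since only FPKM was used.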
